A study of Mus musculus with 8 samples.

Results

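Eph receptors with their ephrin ligands, Robo receptors with their Slit ligands, and the netrins with the receptors Dcc and Unc5 were examined in the dorsal and ventral medial entorhinal cortex (MEC) of the mouse. Members were taken by gene symbol alone, as every gene of the deposited table named Epha, Ephb, Efna, Efnb, Slit, Robo, Ntn or Unc5 with a member number or letter, together with Dcc. This gave 39 of 38553 genes under 38 symbols, of which 16 encode ligands and 23 encode receptors. Efna5 is listed under 2 identifiers at the same locus. The donors were 13 male mice of the strain C57BL/6JolaHsd, 8 weeks old, and the labels name no treatment and no altered allele. From each brain, 1 sagittal slice of 400 µm with the right MEC was cut, and the dorsal part was dissected apart from the ventral part. The mice formed 4 groups, and tissue was pooled over the 3 or 4 mice of a group, which gave 4 dorsal and 4 ventral libraries. Differences are therefore read against the spread between pools, not between single mice.

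Ephrins are cell-surface ligands that signal on contact to Eph receptor tyrosine kinases, and the binding also signals back into the ephrin-bearing cell. Ephrin-A proteins hang on a lipid anchor and mainly bind EphA receptors, whereas ephrin-B proteins span the membrane and mainly bind EphB receptors, with EphA4 able to bind both kinds. Slits are secreted repellents read by Robo receptors, and netrins attract growing axons through Dcc and repel them through Unc5 receptors. These families are best known for laying out topographic axon maps during development, and several members also act at adult synapses.

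The libraries held between 10780902 and 15359782 fragments assigned to genes. Correlations of log2(FPKM + 1) between libraries were 0.977 to 0.985 among dorsal, 0.971 to 0.984 among ventral and 0.965 to 0.982 between dorsal and ventral libraries. FPKM is a fragment number scaled by exon length and by the library's mapped fragments. The paper states that the values of a gene were summed over its transcripts, so FPKM and fragment numbers need not move together. For 4 of the 8 libraries the letter in the column header stands for the opposite region (dorsal libraries 2 and 4 and ventral libraries 1 and 3, counted in the order of the table). The regions used here are those of the 2 conditions that the deposited comparison was run on, and values for the 4 undisputed libraries follow the account of the classes. Among marker genes, 8 of 8 for oligodendrocytes were higher dorsally, with summed FPKM of 851 to 1126 dorsally and 468 to 615 ventrally. For leptomeningeal cells, 3 of 7 tested markers were higher ventrally by limma, with 5 at an unadjusted p under 0.05 and 5 by edgeR. The sums over the list overlapped, at 927 to 1286 and 983 to 1472, and consisted mostly of Ptgds (1007 ± 154 dorsally, 1179 ± 217 ventrally). Of the inhibitory neuron markers, Pvalb was higher dorsally and Sst higher ventrally. The sum of 6 such markers was 231 to 301 dorsally and 308 to 398 ventrally, a rise mostly of Sst (109 ± 29.4 and 220 ± 41.1 FPKM). Gad1 (60.9 and 54.9 FPKM), Gad2 (62.2 and 68.5) and Slc32a1 (7.42 and 7.50) did not pass by limma. Of the genes listed as markers of subiculum, Slc17a6 was higher dorsally and Fn1 and Nts higher ventrally. The paper on these data, however, names Nts among the genes that mark layer Va of the MEC itself. Of those of hippocampus and dentate gyrus, Fibcd1 was higher ventrally (0.641 ± 0.215 FPKM dorsally, 2.52 ± 0.651 ventrally) and Wfs1 higher dorsally. Wfs1 also marks superficial entorhinal cells, whose marker Calb1 was higher ventrally. By limma, 0 of 7 astrocyte and 0 of 6 microglia markers passed (3 and 2 at an unadjusted p under 0.05, and 1 and 0 by edgeR), although their sums did not overlap between regions, at 171 to 181 dorsally and 187 to 199 ventrally for astrocytes and 40.7 to 44.1 and 45.0 to 49.5 for microglia. Of the choroid plexus markers, 4 of 5 were under 0.1 FPKM. The part of these tissue differences in the results below was not tested, and in bulk tissue fewer cells of a type cannot be told apart from less RNA per cell.

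To ask how strongly adult MEC expresses these families, levels were compared as FPKM, which is scaled by exon length. EphA receptors were the most abundant class, at a summed FPKM of 172 ± 8.90 dorsally and 151 ± 14.4 ventrally (mean ± SD, n = 4 libraries, as throughout). Epha5 was listed at 51.5 ± 3.75 dorsally and 54.4 ± 6.55 ventrally, beside Epha4, Epha7 and Epha6. Of the receptors in the other classes, Robo2 was the most abundant, and of the ligands Slit2. The netrins lay at the bottom, with a summed FPKM of 3.90 ± 1.12 dorsally and 3.43 ± 0.184 ventrally over 4 genes. Unc5 and Dcc receptors, by contrast, summed to 54.4 ± 4.19 and 61.8 ± 3.40.

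**Figure D1:**
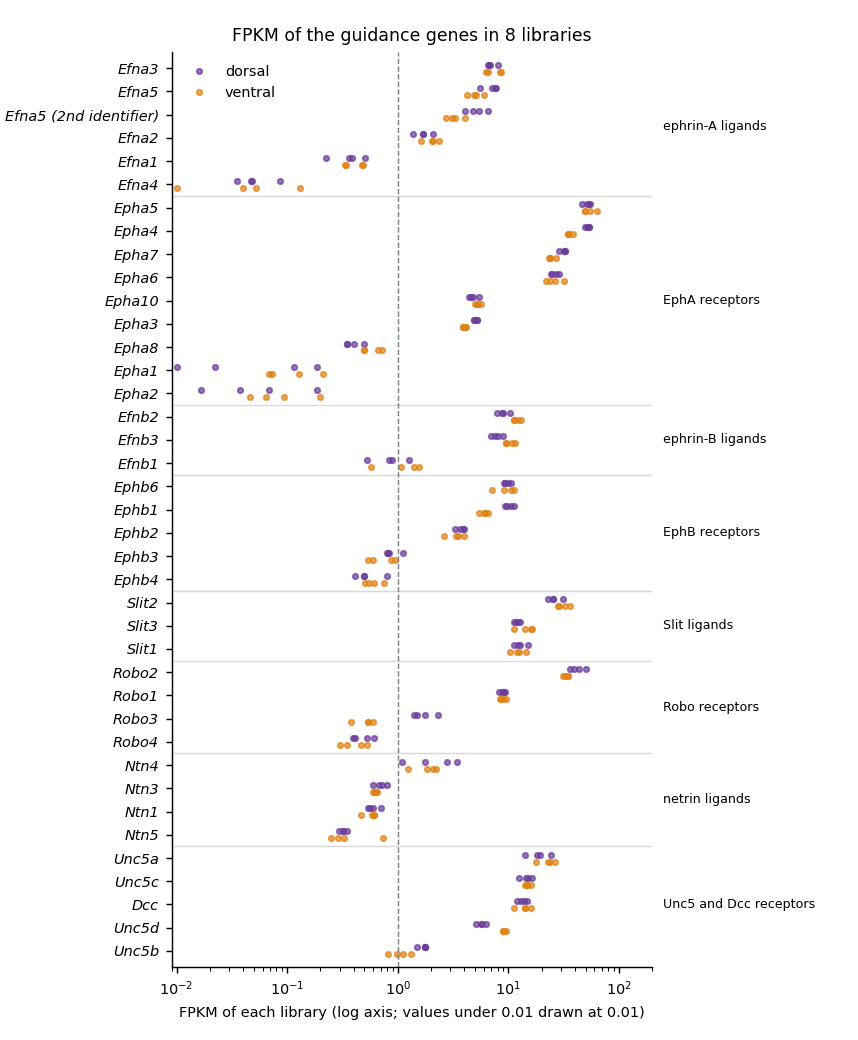
FPKM of each of the 39 listed genes (log axis) in the 4 dorsal and 4 ventral libraries, grouped by class, with 1 point per library and a dashed line at 1 FPKM. Values of 0 are drawn at the left edge. Epha4 to Epha7, Robo2 and Slit2 lie highest, and 3 of 4 netrins lie under 1 FPKM.

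In all, 27 members were tested, those marked as testable in the comparison table whose mean over the 8 libraries reached 1 FPKM. The other 12 were 9 that the table marks as not tested (Epha1, Epha2, Epha8, Ephb4, Robo4, Efna1, Efna4, Ntn1 and Ntn5), 2 under 1 FPKM (Ephb3 and Ntn3), and the second identifier of Efna5, which it marks as low data. Robo3 passed the FPKM filter only through its dorsal libraries and Efnb1 only through its ventral libraries. Calls rest on limma over all 13674 genes tested, with p adjusted by the Benjamini-Hochberg method to a threshold of 0.05, and on a difference of at least 20% in mean FPKM.

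Of the 27 tested members, 4 were called higher dorsally (D>V), namely Epha4, Epha7, Ephb1 and Robo3. This is 14.8% of the tested members, beside 2.15% of all genes tested. Another 2 (7.41%) were called higher ventrally (V>D), Efnb2 and Unc5d, beside 1.45% of all genes. Leaving out Robo3 and Efnb1, 3 of 25 members (12%) were D>V and 2 (8%) V>D. Epha4, Epha7 and Ephb1 encode receptors, as does Robo3, and the V>D members are 1 ligand and 1 receptor. Without regard to the test, every dorsal library exceeded every ventral library for 7 tested members (25.9%, beside 6.17% of all genes), all of them receptors. The reverse held for 3 (11.1%, beside 4.95% of all genes), 2 ligands and 1 receptor. Without Robo3 and Efnb1 these were 6 and 3 of 25. When 1 library was left out, 2 to 4 members were called D>V, with 2 only without dorsal library 2, where Robo3 fell under the FPKM filter. Between 1 and 3 were called V>D, with 1 without any of dorsal libraries 1, 2 and 3 and ventral libraries 1, 3 and 4. At an unadjusted p under 0.05, limma passed 12 members and 2191 of the 13674 genes.

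**Figure D2:**
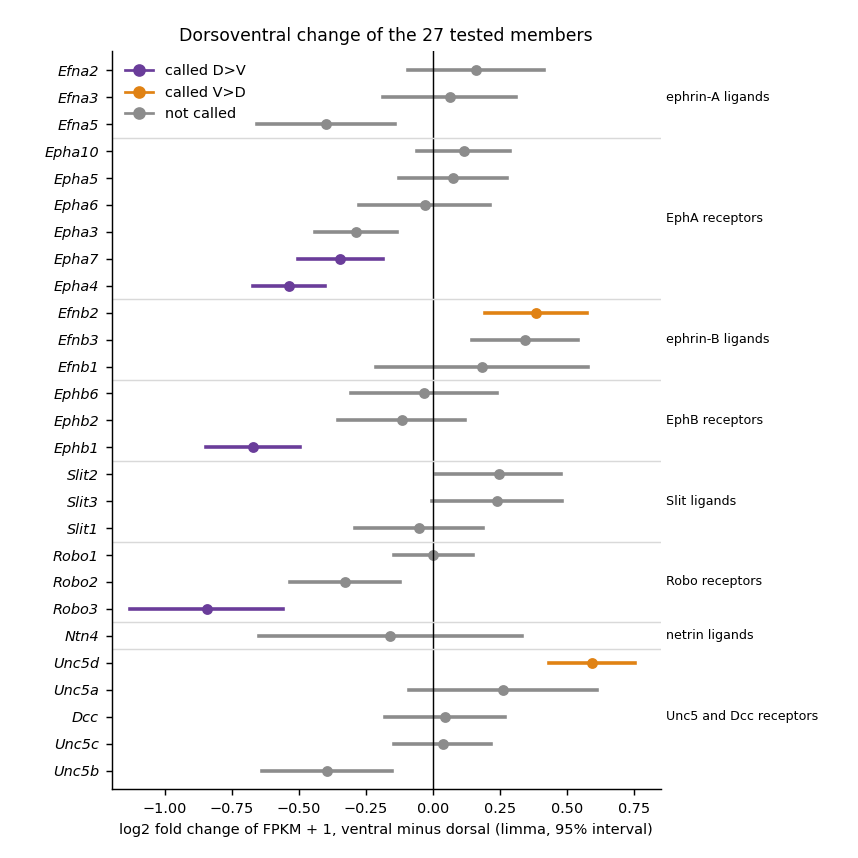
Log2 fold change of FPKM + 1, ventral minus dorsal, with its 95% interval from limma, for the 27 tested members grouped by class. Purple marks the 4 members called D>V, orange the 2 called V>D and grey the 21 not called.

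Epha4, the receptor that binds both kinds of ephrin, had the smallest p of all members. Its FPKM was 53.8, 53.9, 49.8 and 51.2 in dorsal libraries 1 to 4 and 34.7, 38.4, 35.1 and 34.4 in ventral libraries 1 to 4. The dorsal libraries all lay above the ventral ones, at means of 52.2 ± 2.02 and 35.7 ± 1.87, a 1.46-fold difference. The log2 fold change on the FPKM + 1 scale was -0.54 with an SE of 0.06, at an adjusted p of 0.00139 in limma. Epha4 lies on the minus strand of chromosome 1, at 77367185 to 77515088 in GENCODE M21 (GRCm38). It remained called whichever library was left out.

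Epha7, another EphA receptor, was also higher dorsally. Its FPKM was 32.7, 32.2, 28.6 and 32.7 in the dorsal libraries and 23.8, 27.3, 23.4 and 24.0 in the ventral libraries, so that dorsal library 3 and ventral library 2 came closest without overlapping. The means were 31.6 ± 1.96 and 24.6 ± 1.81, and the log2 fold change was -0.35 with an SE of 0.07 (adjusted p = 0.0254 in limma). The call was the less stable of the EphA calls, since it was made in 2 of the 8 fits that left out 1 library (adjusted p of 0.0155 to 0.0878). It was made without dorsal library 3 and without ventral library 2, and lost without any of the other 6.

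Epha3 did not pass, at an adjusted p of 0.0513 in limma and a log2 fold change of -0.29 with an SE of 0.07. Its FPKM was 4.85, 5.23, 4.90 and 5.26 dorsally and 4.03, 3.88, 3.87 and 4.10 ventrally, and the groups did not overlap. The remaining tested EphA receptors, Epha5, Epha6 and Epha10, overlapped between regions. Their log2 fold changes had 95% intervals of -0.13 to 0.27 for Epha5, -0.27 to 0.21 for Epha6 and -0.06 to 0.29 for Epha10. Epha4 made up 30.4% ± 0.568 of the summed EphA FPKM dorsally and 23.7% ± 1.16 ventrally, whereas Epha5 made up 29.9% ± 0.735 and 36.0% ± 1.04. The Epha5 share is no separate evidence, since its own FPKM overlapped and the sum holds Epha4 and Epha7. Epha1, Epha2 and Epha8 lay at or under 0.714 FPKM in every library.

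Of the 3 tested ephrin-A ligands, 0 passed in limma, with 1 (Efna5) at an unadjusted p under 0.05 and called by edgeR. Efna5, a ligand of EphA receptors used in axon mapping, had FPKM of 7.53, 7.18, 7.69 and 5.55 dorsally and 5.97, 5.13, 4.23 and 4.86 ventrally under its main identifier. Dorsal library 4 lay below ventral library 1, and the log2 fold change of -0.40 (SE 0.12) had an adjusted p of 0.0996 in limma. Under the second identifier, FPKM was 6.50, 5.45, 4.08 and 4.81 dorsally and 3.27, 2.72, 3.10 and 4.07 ventrally, also with the dorsal values on top but by a gap as narrow as 4.08 against 4.07. How fragments were divided between the identifiers is not known, and the sum of both passed (log2 fold change -0.50, adjusted p = 0.0239 in limma), a combination chosen after the data were seen. Efna3, at 7.06 ± 0.699 and 7.47 ± 1.25, and Efna2, at 1.71 ± 0.278 and 2.03 ± 0.306, overlapped between regions. Efna1 and Efna4 did not exceed 0.503 FPKM in any library.

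Ephb1, a receptor for ephrin-B ligands, was higher dorsally. Its FPKM was 9.34, 11.2, 10.7 and 9.70 in the dorsal libraries and 6.08, 6.10, 6.49 and 5.49 in the ventral libraries. The lowest dorsal value thus lay well above the highest ventral value. The means of 10.2 ± 0.855 and 6.04 ± 0.412 differed 1.69-fold, with a log2 fold change of -0.67 (SE 0.08) and an adjusted p of 0.00165 in limma. The gene lies on the minus strand of chromosome 9, at 101922128 to 102354693. In GENCODE M21 its exons overlap those of Gm26846 when strand is disregarded, and the part of Gm26846 reads in its value was not tested. Ephb1 was called in all 8 fits that left out 1 library. Ephb2 (3.71 ± 0.322 dorsally, 3.36 ± 0.544 ventrally) and Ephb6, a member without kinase activity (9.70 ± 0.710 and 9.58 ± 1.86), overlapped between regions.

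Among the ephrin-B ligands the values went the other way. Efnb2, a ligand of EphB receptors and of EphA4 that is also made by arterial endothelium, had FPKM of 8.74, 8.89, 7.88 and 10.3 dorsally and 13.1, 11.2, 11.4 and 12.2 ventrally. All ventral libraries exceeded all dorsal libraries, at means of 12 ± 0.856 and 8.95 ± 1.0, a 1.34-fold difference. The log2 fold change was 0.38 with an SE of 0.09 (adjusted p = 0.0375 in limma). The call was made in 2 of 8 fits without 1 library, those without dorsal library 4 and without ventral library 2, with adjusted p of 0.0244 to 0.118 over the 8 fits. Of 7 tested endothelial markers, 0 passed in limma (1 at an unadjusted p under 0.05, 0 by edgeR), with a median log2(V/D), the log2 ratio of ventral to dorsal mean FPKM, of -0.31. Their part in the Efnb2 value was not tested. Efnb2 lies on the minus strand of chromosome 8, at 8617434 to 8661242.

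Efnb3, a further ephrin-B ligand, had FPKM of 7.02, 7.61, 8.88 and 8.06 dorsally and 10.7, 9.46, 11.5 and 9.48 ventrally. The groups did not overlap, but the adjusted p of 0.0676 in limma missed the threshold (log2 fold change 0.34, SE 0.09). Efnb1 was low and overlapped, at 0.880 ± 0.307 and 1.15 ± 0.440. Log2(V/D) was 0.42 for Efnb2 and 0.38 for Efnb3, and lay between -0.76 and -0.02 for the 3 tested EphB receptors.

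**Figure D3:**
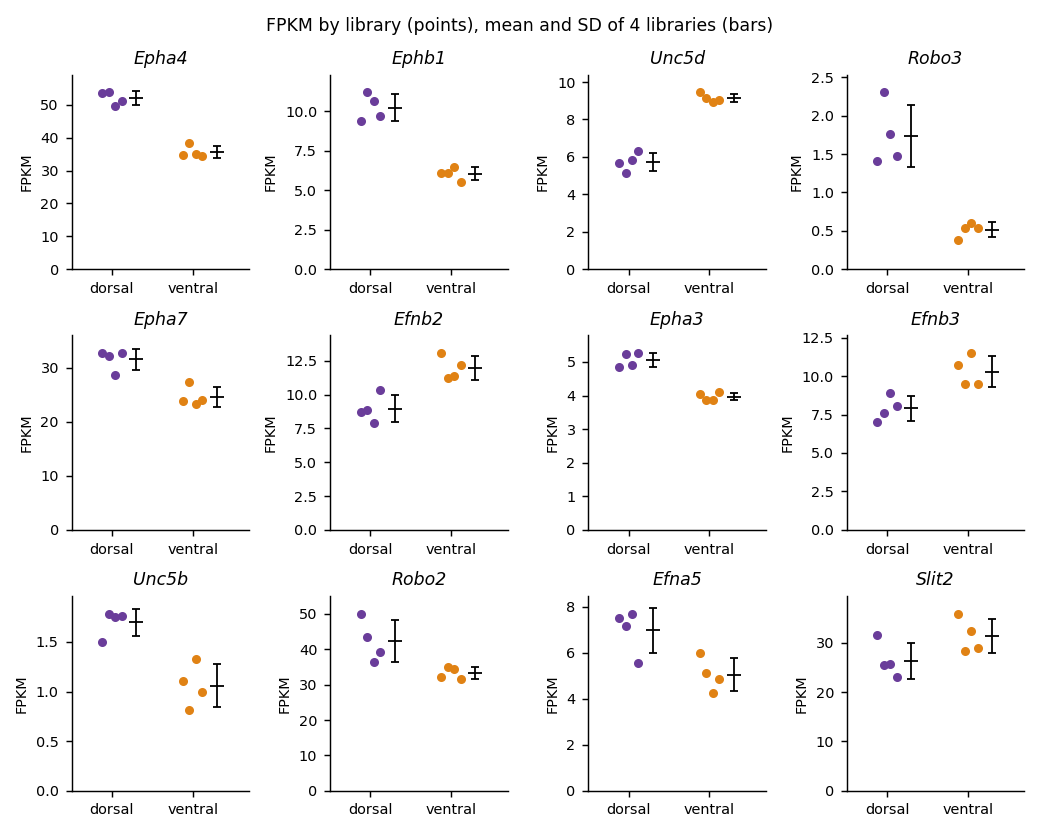
FPKM of the 12 members with the smallest p in limma, each point 1 library, with the mean and SD of the 4 libraries of a region as bars. Dorsal and ventral points are apart in 10 panels and overlap for Efna5 and Slit2.

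Because the ephrin-B system held calls in opposite directions, the DNA before the starts of its 2 called genes is shown, with that of Epha4 as the other called receptor that binds ephrin-B. Each sequence is the 250 bases before the RefSeq start (GRCm38.p6), 5′ to 3′ on the gene's strand, with CG dinucleotides in capitals. The windows are chr9:102354694-102354943 (minus strand) for Ephb1, chr1:77515089-77515338 (minus strand) for Epha4 and chr8:8661243-8661492 (minus strand) for Efnb2.
Ephb1: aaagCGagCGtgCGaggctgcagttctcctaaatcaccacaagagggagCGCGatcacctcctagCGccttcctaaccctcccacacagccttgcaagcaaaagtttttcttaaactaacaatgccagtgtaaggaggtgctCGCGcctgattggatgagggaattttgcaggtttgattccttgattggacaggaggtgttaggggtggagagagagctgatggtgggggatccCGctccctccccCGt
Epha4: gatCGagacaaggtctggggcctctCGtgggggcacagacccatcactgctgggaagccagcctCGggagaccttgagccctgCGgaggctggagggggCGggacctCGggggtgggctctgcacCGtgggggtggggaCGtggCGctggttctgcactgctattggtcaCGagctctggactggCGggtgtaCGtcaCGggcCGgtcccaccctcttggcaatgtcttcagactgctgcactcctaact
Efnb2: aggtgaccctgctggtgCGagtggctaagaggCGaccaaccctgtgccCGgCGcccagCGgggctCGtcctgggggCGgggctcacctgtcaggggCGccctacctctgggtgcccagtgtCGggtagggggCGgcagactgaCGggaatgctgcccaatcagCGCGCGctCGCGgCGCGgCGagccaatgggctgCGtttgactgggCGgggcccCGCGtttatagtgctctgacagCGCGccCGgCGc
The windows hold 10, 14 and 27 CG dinucleotides, where the median over 32851 RefSeq windows of this length was 6. At least as many as in Efnb2 were found in 8.56% of those windows. Efnb2 also holds TATAAA on its reverse strand, as do 12.4% of all windows counting both strands, and Ephb1 and Epha4 do not. Of the members, 33 had an entry, with 38 starts in all, a median of 16.5 CG dinucleotides and TATAAA at 2 of the 38 starts. Unc5d had no entry.

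Of the Robo receptors, Robo3, which in the embryo lets axons cross the midline, showed the greatest ratio of any tested member. Its FPKM was 1.41, 2.31, 1.76 and 1.48 dorsally and 0.376, 0.541, 0.602 and 0.538 ventrally. Every dorsal library exceeded every ventral library more than 2-fold, and the means of 1.74 ± 0.409 and 0.514 ± 0.0967 differed 3.38-fold. The log2 fold change on the FPKM + 1 scale, which understates changes of low genes, was -0.84 with an SE of 0.13 (adjusted p = 0.00578 in limma). The depth behind it was small, at 74 to 166 fragments in the dorsal and 24 to 39 in the ventral libraries. By the size of log2(V/D), Robo3 ranked 11 among the 294 D>V genes, and it was called in all 7 leave-one-out fits in which it passed the FPKM filter. Robo3 passed that filter only through its dorsal libraries and fell under it without dorsal library 2, so the rank and these fits lend no separate support. It lies on the minus strand of chromosome 9, at 37415669 to 37433246, end to end with the endothelial receptor Robo4, which stayed at or under 0.611 FPKM.

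Robo2, the main Robo receptor in this tissue, had FPKM of 50.0, 43.3, 36.5 and 39.3 dorsally and 32.3, 34.9, 34.5 and 31.5 ventrally. The groups did not overlap, but the dorsal libraries were spread widely and the adjusted p was 0.0926 in limma (log2 fold change -0.33, SE 0.09). Robo1, in contrast, had nearly equal means of 8.88 ± 0.429 and 8.90 ± 0.478, with a 95% interval of the log2 fold change from -0.15 to 0.15.

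Of the 3 Slit ligands, 0 passed in limma, with 1 (Slit2) at an unadjusted p under 0.05 and another (Slit3) called by edgeR. Slit2 had FPKM of 31.5, 25.4, 25.6 and 23.0 dorsally and 35.8, 28.2, 32.5 and 29.0 ventrally, so that dorsal library 1 lay within the ventral range. Its log2 fold change was 0.25 with an SE of 0.11 (adjusted p = 0.288 in limma). Slit3, at 11.2, 11.8, 12.2 and 12.8 dorsally and 16.4, 11.2, 16.2 and 14.0 ventrally, overlapped through ventral library 2 (adjusted p = 0.321 in limma). It passed only without ventral library 2, at an adjusted p of 0.0447. Slit1 was at 12.8 ± 1.62 and 12.3 ± 1.64.

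Unc5d was the only one of the 5 called receptors to be higher ventrally. Of all 17 tested receptors, 7 had a log2(V/D) above 0. Its FPKM was 5.67, 5.14, 5.82 and 6.30 dorsally and 9.45, 9.16, 8.95 and 9.01 ventrally. The ventral libraries lay close together and all above the dorsal ones, at means of 9.14 ± 0.226 and 5.73 ± 0.479, a 1.60-fold difference. The log2 fold change was 0.59 with an SE of 0.07 (adjusted p = 0.00187 in limma), and the call held in all 8 fits without 1 library. Unc5d, a repulsive receptor for netrin and for the membrane protein Flrt2, lies on the minus strand of chromosome 8, at 28646717 to 29219636.

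Unc5b, another netrin receptor that is also made by endothelium, lay the other way without passing. Its FPKM was 1.50, 1.78, 1.75 and 1.76 dorsally and 1.11, 0.809, 1.33 and 0.994 ventrally, which did not overlap (log2 fold change -0.39, SE 0.11, adjusted p = 0.0856 in limma). Summed endothelial markers were 18.6 to 24.6 dorsally and 14.0 to 19.3 ventrally, and their part in this value was not tested. Unc5a (19.0 ± 4.30 and 22.8 ± 3.64), Unc5c (14.6 ± 1.53 and 14.9 ± 0.803) and Dcc, the attractive netrin receptor (13.4 ± 1.08 and 13.9 ± 1.94), overlapped between regions. Unc5d thus made up 10.6% ± 0.903 of the summed Unc5 and Dcc FPKM dorsally and 14.8% ± 0.869 ventrally, without overlap.

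Of the netrins, Ntn4 alone was tested, at 2.27 ± 1.04 dorsally and 1.84 ± 0.429 ventrally (adjusted p = 0.792 in limma). Ntn1, the classical ligand of Dcc, was at 0.603 ± 0.0754 and 0.567 ± 0.0699. Ntn3 and Ntn5 did not exceed 0.797 FPKM in any library.

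To ask whether ligands and receptors formed opposing gradients, the classes were compared as wholes, without a test. The median log2(V/D) was 0.25 over the 10 tested ligands, 7 of which were above 0, and -0.02 over the 17 tested receptors, 10 of which were below 0. Leaving out 1 library gave 0.16 to 0.32 for the ligands (0.16 without ventral library 4) and -0.14 to -0.02 for the receptors (-0.14 without ventral library 2). Over all genes tested it was -0.01, and 48.8% of them were above 0. The medians by class were 0.39 for ephrin-B, 0.25 for Slit and 0.08 for ephrin-A ligands, and -0.35 for Robo, -0.19 for EphA, -0.14 for EphB and 0.05 for the Unc5 and Dcc receptors. The only netrin tested, Ntn4, was at -0.30, which made netrins the 1 ligand class below 0. A median of 3 genes rests on its middle gene, which was Robo2 for the Robo receptors and for the ephrin-B ligands Efnb1, which reached 1 FPKM only through its ventral libraries. Without Robo3 and Efnb1 the medians were 0.24 over 9 ligands and -0.02 over 16 receptors. In the 4 libraries of undisputed region they were 0.09 over 9 ligands and 0.03 over 17 receptors, so that most of the ligand shift was not seen there.

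Summed over all members, ligands came to 90.8 to 98.1 FPKM in the dorsal and 95.1 to 113 in the ventral libraries, and receptors to 284 to 315 and 260 to 297. Both overlapped between regions. Among the classes, ephrin-B ligands summed to 17.0, 17.4, 17.3 and 19.2 in the dorsal libraries and 24.8, 21.2, 24.4 and 23.1 in the ventral libraries, all ventral sums being higher. EphB receptors summed to 23.9, 25.0, 26.5 and 24.8 dorsally and 18.0, 20.4, 22.3 and 20.6 ventrally, all dorsal sums being higher. The ratio of ephrin-B to EphB FPKM was accordingly 0.708 ± 0.0507 dorsally and 1.16 ± 0.153 ventrally, without overlap. Of the EphB receptors, only Ephb1 was apart between regions, and it made up 40.8% ± 2.70 of the EphB sum dorsally and 29.9% ± 3.00 ventrally.

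Robo receptors summed to 61.1, 55.0, 46.9 and 50.5 dorsally and 42.2, 45.5, 44.1 and 40.8 ventrally, all dorsal sums being higher, and Robo2 made up 79.1% ± 1.90 and 77.2% ± 0.723 of them. The Slit sums, 51.2 ± 2.77 and 58.2 ± 4.84, overlapped slightly between regions. The ratio of Slit to Robo FPKM was 0.966 ± 0.109 dorsally and 1.35 ± 0.142 ventrally, without overlap. For the ephrin-A system no such opposition was seen, since ligands (21.4 ± 1.03 and 18.3 ± 2.31, both Efna5 identifiers included) and EphA receptors both had lower means ventrally and their ratio was 0.125 ± 0.00659 and 0.123 ± 0.0220. The netrin sums overlapped, and so did those of the Unc5 and Dcc receptors, at a log2(V/D) of -0.18 for the ligands and 0.18 for the receptors. Sums of mRNA over a class take no account of protein level or binding.

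**Figure D4:**
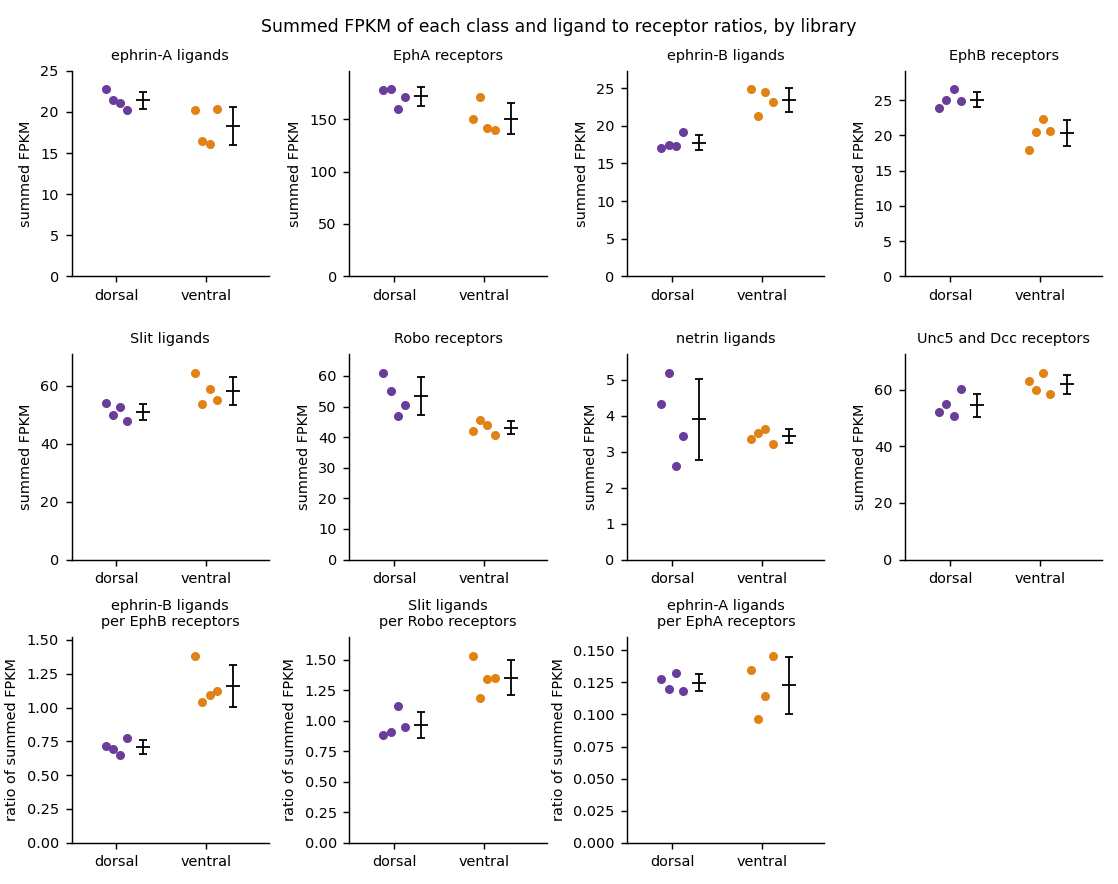
Summed FPKM of each class and 3 ligand to receptor ratios of summed FPKM, each point 1 library, with the mean and SD of 4 libraries as bars. The ephrin-B sum and the ephrin-B to EphB and Slit to Robo ratios were higher in every ventral library, and the EphB and Robo sums in every dorsal library.

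The regions of the libraries bear on all of these values. In the 4 libraries on which headers and conditions name the same region (dorsal 1 and 3, ventral 2 and 4), 0 of 26 tested members and 0 of 13661 genes were called by limma, while 7 members and 1240 genes had an unadjusted p under 0.05. The direction of the 6 called members could not change there, since their dorsal and ventral values did not overlap in the full set of libraries. Their log2 fold changes were -0.50 for Epha4, -0.69 for Ephb1, -0.74 for Robo3, -0.25 for Epha7, 0.58 for Unc5d and 0.45 for Efnb2. Their adjusted p in limma lay between 0.294 and 0.596 with 2 libraries per region. The Slit ligands came close to 0 there, with log2 fold changes of 0.0096 for Slit2, 0.0944 for Slit3 and 0.0208 for Slit1. Efnb3 was at 0.23, Epha3 at -0.24, Robo2 at -0.36, Unc5b at -0.47 and Efna5 at -0.52. The directions of Efnb3, Epha3, Robo2 and Unc5b could not change either, as their regions did not overlap in the full set, whereas that of Efna5 could.

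The estimated fragments behind the FPKM were compared as a second readout of the same libraries with edgeR, which tested 34 members. It called 11 D>V (32.4%, beside 3.38% of 15366 genes) and 4 V>D (11.8%, beside 2.96%), among them all 6 limma calls. Beyond those, Epha3, Ephb2, Robo2, Unc5b, both identifiers of Efna5 and Ntn4 were D>V, and Efnb3 and Slit3 V>D. DESeq2 called 10 members D>V and 4 V>D, without Ephb2, where it called 3.24% and 2.77% of 15988 genes. Robo3 had a log2 fold change of -1.85 in fragments (adjusted p = 1.2e-05 in edgeR) and Epha4 one of -0.55. For most members the ratios in FPKM and in fragments were close. Ntn4 stood apart, at -0.30 in FPKM and -0.70 in fragments (adjusted p = 0.0106 in edgeR) from 32 to 100 fragments per library, and Ephb2 was at -0.14 and -0.29 (adjusted p = 0.0447 in edgeR).

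**Figure D5:**
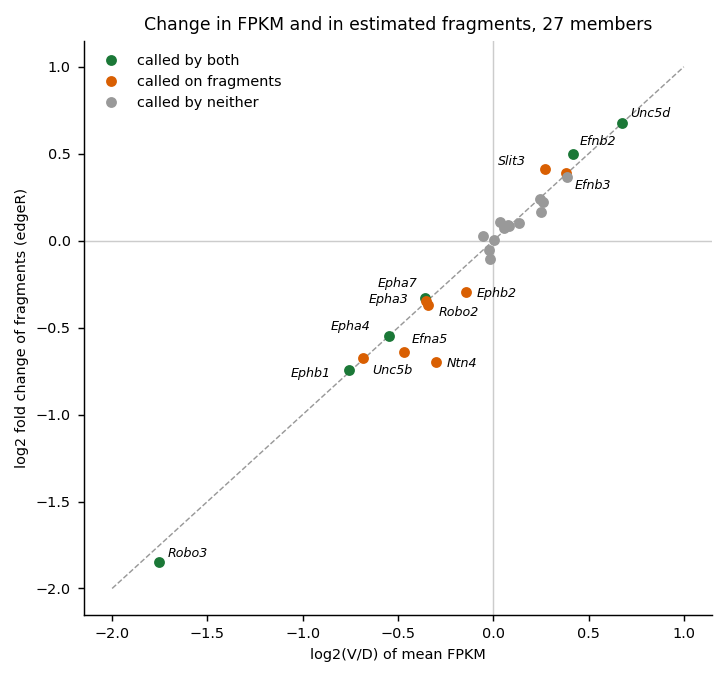
Log2(V/D) of mean FPKM (horizontal) and log2 fold change of estimated fragments from edgeR (vertical) for the 27 tested members, with a dashed line of equality. Robo3 lies farthest from 0 on both scales, and Ntn4, Efna5 and Ephb2 lie below the line.

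Other genes of these pathways were followed as a list of 77, of which 76 were in the table and 73 tested. Of these, 2 (2.74%) were D>V and 1 (1.37%) was V>D in limma, close to the shares of all genes. By edgeR, 2 were D>V and 5 V>D, beside 3.38% and 2.96% of all genes, so the V>D calls lay above that share. Chn1, a Rac-inactivating protein that acts below EphA4, fell from 469 ± 7.51 to 374 ± 18.9 FPKM (log2 fold change -0.33, SE 0.06, adjusted p = 0.0217 in limma). Vav3, a signalling protein recruited by Eph receptors, was at 1.85 ± 0.219 and 0.927 ± 0.125 (adjusted p = 0.0162 in limma), but edgeR did not call it (adjusted p = 0.143). It passed the FPKM filter only through its dorsal libraries. Flrt2, the binding partner of Unc5d, rose from 20.2 ± 1.47 to 25.5 ± 1.40 FPKM (log2 fold change 0.32, SE 0.07, adjusted p = 0.0326 in limma). The most abundant genes of the list that did not pass were Ppp3ca, a calcineurin subunit (274 ± 22.6 and 244 ± 10.5), Anks1b (234 ± 19.4 and 258 ± 29.2) and Rac1, a small GTPase of the cytoskeleton (205 ± 18.0 and 220 ± 28.9). The median log2(V/D) of the list was -0.01.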

How the data were processed

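Paired-end reads from 4 dorsal and 4 ventral MEC libraries were processed by the authors with CASAVA 1.8, TopHat 2.0.8 and Cuffdiff, with Ensembl release 73 genes on GRCm38. The authors deposited gene FPKM per library, as scaled by Cuffdiff, and the estimated count of fragments per gene, condition and replicate number, of which 90.6% were whole. Their regional fold changes, p-values and q-values were not used, nor was an FPKM summary. Libraries were given regions by condition, as a published list of regional FPKM equalled the condition means for 1487 of 1487 genes, against 7 with the regions swapped. That match shows which condition the authors called dorsal. It cannot decide between conditions and headers, since it holds means and no single libraries.

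Regions were compared with limma 3.58.1 (R 4.3.3) with a variance trend on log2(FPKM + 1), over genes marked as testable by Cuffdiff (a stated minimum of 10 alignments) with a mean FPKM of 1. Calls needed an adjusted p under 0.05 and a 20% difference. edgeR 4.0.16 and DESeq2 1.42.0 tested the rounded counts. On simulated data the fits recovered most of 200 genes changed by 1 on the log2 scale and called 0 where nothing was changed. That change is larger than the FPKM ratio of any called member but Robo3, and recovery of smaller changes was not tested. Alternatives covered the constant, filters, ratio threshold, scaling, test, replicate block, regions of the headers and leaving out each library. The members, lists and markers were chosen with earlier results of these data known. Members called, or among the 12 with the smallest p, are given by library, as are the second Efna5 identifier and Slit3, added after their values were seen; of the pathway list, called genes and the 3 most abundant others are named. Positions are GENCODE M21 and promoters RefSeq. Whether counting used strand is not given in the sources used here. No source ties single libraries to mouse groups, so p-values measure the spread between pools.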

Additional observations from a re-analysis of the deposited data

Results flagged for a closer look

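Of 70 sets of 4 libraries searched, 5 held a library far from the other 3, and chance flags about 1 in 20 such sets. Epha7 had its lowest dorsal value, 28.6 FPKM, in dorsal library 3, where the other dorsal libraries lay at 32.2 to 32.7, and its highest ventral value, 27.3 FPKM, in ventral library 2, above 23.4 to 24.0 in the others. Both lay toward the other region. Unc5b was lowest in dorsal library 1, at 1.50 FPKM, below 1.75 to 1.78 in the others. Efna3 was highest in dorsal library 4, at 8.10 FPKM, above 6.59 to 6.83. The summed FPKM of the ephrin-B ligands was also highest in dorsal library 4, at 19.2, above 17.0 to 17.4 in the others, and still under the lowest ventral sum of 21.2.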

How the results depend on the processing

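Of 249 values of the named members under alternatives, 202 kept their direction and side of the threshold, 21 lost the call, 19 gained it and 7 changed direction. All 7 changes of direction came with the regions that the column headers name, under which 0 members were called in either direction and limma called 1 of 13674 genes (721 at an unadjusted p under 0.05, 0 of them members). The log2 fold changes were then 0.0401 for Epha4, -0.0134 for Unc5d, 0.10 for Robo3, 0.10 for Epha7, 0.0503 for Epha3, -0.11 for Efnb3 and -0.24 for Slit2, and the median log2(V/D) of the ligands was -0.15. The cause was not tested. With the 4 libraries of undisputed region, an alternative chosen after seeing the data like the summed Efna5 identifiers, 0 members were called D>V and 0 V>D, from 2 libraries per region, and the medians were 0.0876 for ligands and 0.027 for receptors, the latter now above 0. Calls of members D>V numbered 11 by edgeR, 10 by edgeR without a filter and 10 by DESeq2, and V>D 4 by each of these. The counts were 2 to 4 and 1 to 3 when 1 library was left out, and the medians 0.16 to 0.32 for ligands and -0.14 to -0.0195 for receptors. Without the FPKM filter the receptor median was -0.0813. Rescaling to one total FPKM ended the call of Epha7 (adjusted p = 0.0911 in limma). The replicate block gave 4 and 2 members, as without it. Same-numbered libraries correlated at 0.139, 0.0745, 0.123 and -0.00499 in their deviations, so the numbers were not taken as a pairing. Depth limits Robo3 (24 to 166 fragments per library) and also Efnb1 (26 to 57), Efna2 (40 to 77) and Ntn4 (32 to 100). It limits most of the 12 untested members too, though not the second Efna5 identifier (97 to 240).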
